A study of Homo sapiens with 4 samples.

Results

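RING1 and RNF2 encode RING1A and RING1B, the catalytic RING-finger subunits of Polycomb Repressive Complex 1 (PRC1), and the PCGF genes encode the paralogous partners with which they pair. The genes examined were these 2 catalytic genes and the PCGF paralogs PCGF1, PCGF2 (also MEL18), PCGF3, BMI1 (PCGF4), PCGF5 and PCGF6. They were chosen by symbol and not by their values, though with earlier results of these data known. Symbols were matched through Ensembl identifiers, and 7 of the 8 genes had a row among the 57820 genes of the count tables. The reference used here lists PCGF2 under an identifier that matched none of those rows, so PCGF2 was not analysed here.

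As background, PRC1 attaches a single ubiquitin to histone H2A and takes part in the silencing of developmental genes. Each PRC1 particle holds RING1A or RING1B together with 1 PCGF protein, and the PCGF protein sets which further subunits join. Complexes built on PCGF2 or BMI1 can carry CBX and PHC proteins and are called canonical. Variant complexes carry RYBP or YAF2 in place of a CBX protein. PCGF1 is found with KDM2B and BCOR, PCGF3 and PCGF5 with AUTS2 or fibrosin proteins and casein kinase, and PCGF6 with MGA, MAX and E2F6. BAP1, with an ASXL partner, removes the same ubiquitin from H2A.

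Polyadenylated RNA was measured by stranded RNA-seq in 4 libraries of HAP1 cells, a human line derived from chronic myeloid leukaemia cells and nearly haploid. The dKO libraries 1 and 2 came from cells with genotype RING1A, RING1B KO, and the tKO libraries 1 and 2 from cells with genotype RING1A, RING1B, BAP1 KO. No library was treated, and both genotypes lack RING1A and RING1B, so by genotype the tKO libraries differ from the dKO libraries in BAP1. One tKO library also stood apart over an arm of chromosome 10, as described with BMI1. Effects of losing the catalytic subunits themselves could not be read from these libraries. BAP1 and RING1A had been interrupted by a STOP cassette in selected clones, and RING1B KO cells came from a commercial source. The methods of the study call the libraries of a condition independent biological replicates, but not whether they came from separate clones.

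Between 16054590 and 18455410 counts were assigned to genes in a library. A count of 3 equalled between 0.163 and 0.187 CPM (counts scaled to a common library total). BAP1 stood at 111 and 112 CPM in dKO 1 and dKO 2, and at 9.63 and 6.66 CPM in tKO 1 and tKO 2, in the direction of the genotype labels. No marker list for HAP1 was used, and markers of other cell types were checked instead. At most 3 counts in every library were found for 5 of 6 haematopoietic markers, including PTPRC, CD34 and GATA1, for 3 of 4 fibroblast markers, and for EPCAM and CDH1 among 4 epithelial markers. The remaining fibroblast marker, COL1A1, stood between 10.5 and 12.9 CPM. Of the remaining epithelial markers, KRT18 stood between 18.6 and 22.8 CPM and KRT8 between 0.498 and 1.17 CPM. The summed haematopoietic markers, almost entirely KIT, lay between 47.5 and 58.9 CPM in dKO and between 46.2 and 51.9 CPM in tKO.

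To place the genes, the 250 bases before the start site are shown for the 2 genes targeted in these cells and for BMI1, the paralog whose level differed most between libraries. The sequences are from RefSeq (GRCh38.p14), whereas gene positions elsewhere are on GRCh37. They read 5′ to 3′ on the strand of the gene, with every CG dinucleotide in capitals.
RING1 (chr6:33208250-33208499, plus strand): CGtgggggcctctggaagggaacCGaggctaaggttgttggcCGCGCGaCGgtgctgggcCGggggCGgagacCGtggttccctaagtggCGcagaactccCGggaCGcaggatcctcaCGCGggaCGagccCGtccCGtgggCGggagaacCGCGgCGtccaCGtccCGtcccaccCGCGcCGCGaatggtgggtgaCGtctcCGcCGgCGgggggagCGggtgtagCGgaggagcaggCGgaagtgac
RNF2 (chr1:185045308-185045557, plus strand): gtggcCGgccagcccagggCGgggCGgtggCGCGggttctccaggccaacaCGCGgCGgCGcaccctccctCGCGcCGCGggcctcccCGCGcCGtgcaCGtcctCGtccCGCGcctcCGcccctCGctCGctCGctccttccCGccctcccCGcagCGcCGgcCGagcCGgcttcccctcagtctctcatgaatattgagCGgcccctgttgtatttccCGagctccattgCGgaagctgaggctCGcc
BMI1 (chr10:22320849-22321098, plus strand): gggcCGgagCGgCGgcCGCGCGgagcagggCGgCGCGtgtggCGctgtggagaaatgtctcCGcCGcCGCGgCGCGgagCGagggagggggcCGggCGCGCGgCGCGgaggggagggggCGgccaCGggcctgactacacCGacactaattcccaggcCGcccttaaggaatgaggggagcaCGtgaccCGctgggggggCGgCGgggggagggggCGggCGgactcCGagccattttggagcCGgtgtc
The RING1 window held 34 CG dinucleotides, the RNF2 window 34 and the BMI1 window 35, against a median of 11 over 35116 windows of the same length. Of all windows, 6.84% held at least 34 and 5.80% at least 35. These windows describe the genes only, since nothing here was measured at the promoters.

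RNF2 (ENSG00000121481.6, chromosome 1, 185014658 to 185071735, plus strand), the gene of RING1B, had the highest mean level of the 7 genes per kb of exonic sequence. Its level was 77.0 CPM in dKO 1, 86.8 CPM in dKO 2, 76.9 CPM in tKO 1 and 68.6 CPM in tKO 2. In CPM the tKO libraries thus lay below both dKO libraries, tKO 1 by a small margin only. On the scaled log2-CPM used for the fit, tKO 1 lay just above dKO 1. Their log2 deviations from the gene's mean over the libraries were 0.012 and 0.007. The mean of dKO was 81.9 ± 6.91 CPM (SD, n = 2), against 72.8 ± 5.83 CPM (SD, n = 2) for tKO. The log2 fold change of RNF2 was -0.17 (SE 0.12), and the difference was not past the threshold (limma adjusted p = 0.996, 95% interval -0.45 to 0.12). An RNF2 transcript was therefore counted at this level in cells of the knockout genotype, which says nothing of the protein. A processed copy of the gene, RNF2P1, had at most 3 counts in a library. The log2 fold changes of the nearest protein-coding genes were below 0 as well, at -0.12 for TRMT1L, -0.36 for SWT1 and -0.09 for IVNS1ABP on one side, and at -0.06 for NIBAN1, -0.16 for EDEM3 and -0.12 for C1orf21 on the other. The smallest unadjusted limma p-value among these 6 neighbours was 0.199, for SWT1. Of all 15136 tested genes 7613 had a log2 fold change below 0.

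RING1 (ENSG00000204227.4, chromosome 6, 33176277 to 33180499, plus strand), the gene of RING1A, was close to the limit of detection in every library. Its counts were 12 and 17 in the dKO libraries and 12 and 13 in the tKO libraries, which correspond to 0.650, 0.945, 0.731 and 0.810 CPM. The genotypes overlapped. The log2 fold change of RING1 was -0.022 (SE 0.38), with a wide 95% interval from -0.93 to 0.88 (limma adjusted p = 0.998). No read was counted on the opposite strand of RING1 in any library.

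The low count of RING1 has to be read with its surroundings. RING1 lies at the edge of the major histocompatibility complex, and only reads mapped to a single place were counted. Of 180 protein-coding genes that start between 29 and 34 Mb of chromosome 6, 53.3% had at most 3 counts in all libraries, against 30.5% of the other 19224 protein-coding genes. This window was chosen after the values were seen, and the sets compared were not matched for how widely their genes are expressed. CSNK2B, a regulatory subunit of casein kinase 2, and DDX39B, a helicase of mRNA export, are used by most cells and were both listed at 0 in all 4 libraries. TUBB, a tubulin gene of the same region, had between 1527 and 1782 counts. Among the 6 nearest neighbours of RING1, RPS18 stood between 382 and 440 CPM, VPS52 between 14.9 and 17.1 CPM, SLC39A7 between 13.8 and 16.9 CPM and RXRB between 7.42 and 9.50 CPM. HSD17B8 lay between 1.25 and 3.05 CPM and B3GALT4 at 0. A low transcript level and reads lost in mapping cannot be told apart for RING1, and its level is given below only as counted.

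**Figure D1:**
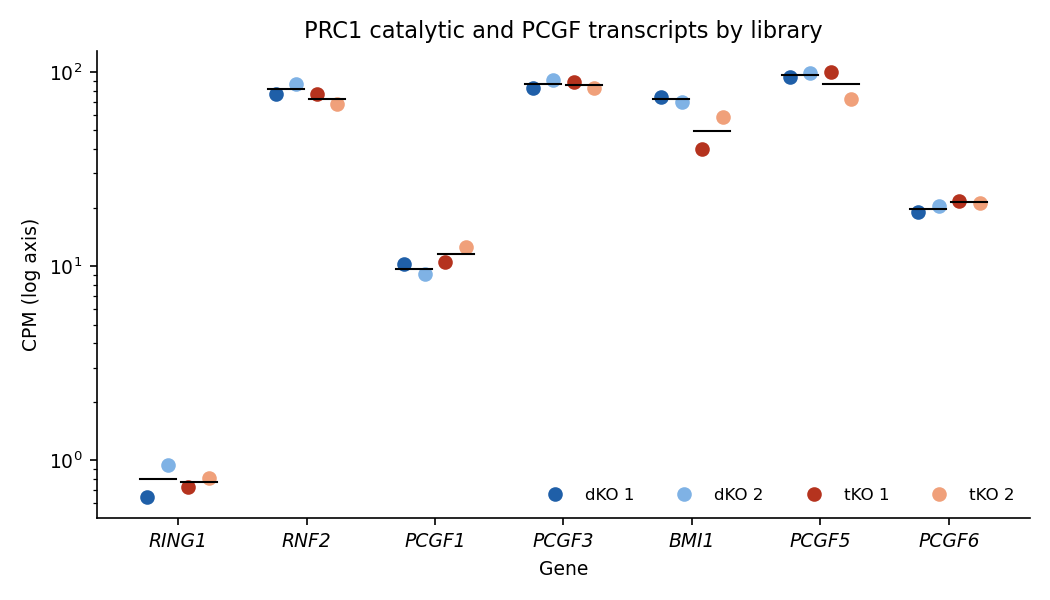
CPM on a log axis for the 7 genes in the 4 libraries, each point being 1 library and each bar the mean of 2 libraries of a genotype. RING1 lies below 1 CPM in all libraries, and BMI1 in tKO 1, at 40.3 CPM, is the point farthest from its gene's other libraries above that level.

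Among the PCGF paralogs, BMI1 (ENSG00000168283.9, chromosome 10, 22610028 to 22620413, plus strand), a partner in canonical PRC1, differed most between the genotypes. Its counts were 1376 and 1265 in the dKO libraries and 661 and 937 in the tKO libraries, or 74.6, 70.3, 40.3 and 58.4 CPM. Both tKO libraries were lower than both dKO libraries, but tKO 1 lay farther from tKO 2 than tKO 2 lay from dKO 2. The mean of dKO was 72.4 ± 3.0 CPM (SD, n = 2), against 49.3 ± 12.8 CPM (SD, n = 2) for tKO. The log2 fold change of BMI1 was -0.57 (SE 0.18), with a 95% interval from -0.99 to -0.15. The unadjusted p-value was 0.0149 and the adjusted p-value 0.996 in limma, so BMI1 was not past the threshold. Unadjusted p-values below 0.05 were found for 3.55% of all tested genes. The call turned on single libraries. Without tKO replicate 2 the log2 fold change was -0.83 (limma adjusted p = 1.53e-08), and without tKO replicate 1 it was -0.32 (limma adjusted p = 0.101). Over all tested genes 2.93% and 8.34% passed the adjusted p-value in these fits, in the same order. In each of them the lone tKO library was assumed to vary like the dKO pair.

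Taken against the dKO mean, BMI1 was at 56.2% in tKO 1 and at 80.1% in tKO 2, log2 ratios of -0.83 and -0.32. A log2 ratio below -0.5 was found for 6.83% of all tested genes in tKO 1 and for 9.04% in tKO 2, and BMI1 in tKO 1 was the only such value among the 7 genes. BMI1 lies on the short arm of chromosome 10, before the centromere gap that starts at 39154936, and expression from this arm was reduced as a whole in tKO 1. Of the 116 short-arm genes with a mean log2-CPM above 1, 115 had a log2 ratio below -0.5 in tKO 1, with a median of -0.98 and quartiles of -1.11 and -0.87. BMI1 was less reduced than most of them, with 96 of the 116 genes lower. In tKO 2 the same genes had a median of -0.05 and quartiles of -0.20 and 0.08, and 11 of them were lower than BMI1. Their log2 fold changes of tKO against dKO had a median of -0.53 and quartiles of -0.61 and -0.42. BMI1, at -0.57, had 40 of these genes below it. The 360 genes of the long arm had medians of 0.02 in tKO 1 and 0.00 in tKO 2.

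**Figure D2:**
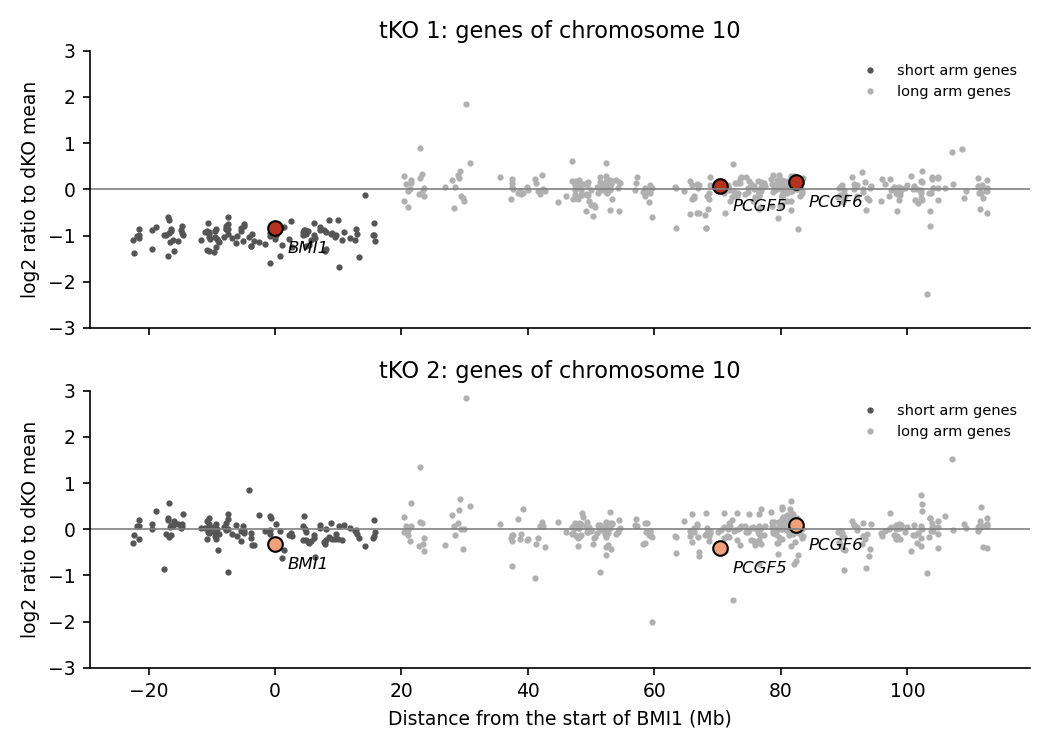
Log2 ratio to the dKO mean for tested genes of chromosome 10 with a mean log2-CPM above 1, against the distance of each gene's start from that of BMI1 in Mb, with tKO 1 above and tKO 2 below. Short-arm genes are dark and long-arm genes light. In tKO 1 most short-arm genes lie near -1 and BMI1 at -0.83, while PCGF5 and PCGF6 on the long arm lie near 0. In tKO 2, 1 gene falls below the axis.

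Genes beside BMI1 were measured in the same way. COMMD3, which ends 0.793 kb before BMI1 starts, stood at 17.6, 18.2, 8.35 and 13.95 CPM in dKO 1, dKO 2, tKO 1 and tKO 2, with log2 ratios of -1.09 in tKO 1 and -0.37 in tKO 2. It therefore lay below both dKO libraries in both tKO libraries, as BMI1 did. DNAJC1 and PIP4K2A, the other neighbours that were expressed, had log2 ratios of -0.86 and -0.996 in tKO 1 and of 0.24 and 0.12 in tKO 2. EBLN1 and ARMC3 had 0 counts and SPAG6 was counted in dKO 2 only. Counts of BMI1 also depend on an overlapping read-through gene, COMMD3-BMI1, with which 22.8% of its exonic bases are shared in the annotation used here. Reads that fall on 2 genes of a strand were counted for neither, and COMMD3-BMI1 itself had 0 counts in all libraries. The copy BMI1P1 had 0 counts.

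The other PCGF genes of chromosome 10 lie on the long arm. PCGF5 (ENSG00000180628.10, 92922769 to 93044094, plus strand), a subunit of variant complexes with AUTS2, was at 93.7 CPM in dKO 1, 98.4 CPM in dKO 2, 99.9 CPM in tKO 1 and 72.9 CPM in tKO 2. Here tKO 2 stood apart from the other 3 libraries and tKO 1 was the highest of the 4. The log2 fold change of PCGF5 was -0.17 (SE 0.16; limma adjusted p = 0.996, 95% interval -0.55 to 0.22). PCGF5 passed the adjusted p-value without tKO replicate 1, with a log2 fold change of -0.41 (limma adjusted p = 0.0114), where 8.34% of all tested genes passed, and had a log2 fold change of 0.070 without tKO replicate 2. PCGF6 (ENSG00000156374.10, 105062553 to 105110901, minus strand), the partner of MGA and E2F6, was at 19.1, 20.5, 21.8 and 21.1 CPM in dKO 1, dKO 2, tKO 1 and tKO 2. Both tKO libraries were above both dKO libraries by a small margin, and the log2 fold change of 0.12 was below its SE of 0.14 (limma adjusted p = 0.996).

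PCGF3 and PCGF1 complete the measured paralogs. PCGF3 (ENSG00000185619.13, chromosome 4, 699537 to 763877, plus strand), which like PCGF5 joins complexes with fibrosin proteins, was at 82.6, 91.2, 88.8 and 82.5 CPM in dKO 1, dKO 2, tKO 1 and tKO 2. Its genotypes overlapped, and its log2 fold change of -0.016 (SE 0.11) had the narrowest 95% interval of the 7 genes, from -0.27 to 0.24 (limma adjusted p = 0.996). With unstranded counts this value was 0.010. Reads on the opposite strand made up 12.0% of the stranded reads at PCGF3, where 23.2% of exonic bases overlap antisense genes including PCGF3-AS1, against at most 1.49% at the other 6 genes. PCGF1 (ENSG00000115289.8, chromosome 2, 74732170 to 74734822, minus strand), the paralog of the complex with KDM2B and BCOR, was at 10.3, 9.06, 10.5 and 12.5 CPM. The tKO libraries were higher than both dKO libraries, but tKO 1 exceeded dKO 1 by less than the dKO libraries differed from each other. The log2 fold change of PCGF1 was 0.25 (SE 0.19; limma adjusted p = 0.996, 95% interval -0.22 to 0.71).

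**Figure D3:**
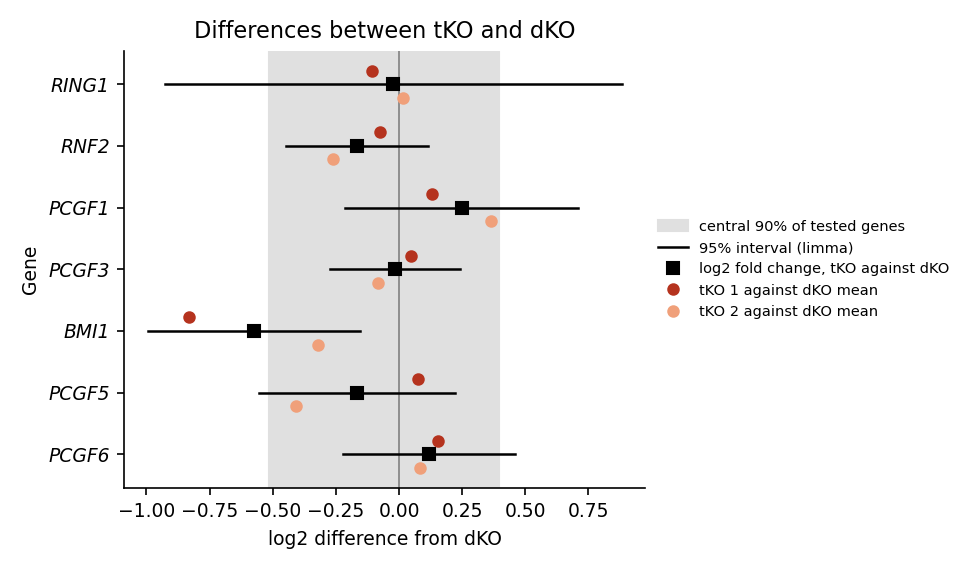
Log2 difference between tKO and dKO for each gene, with squares for the limma log2 fold change, lines for its 95% interval, circles for each tKO library against the dKO mean, and the grey band for the central 90% of tested genes (-0.51 to 0.40). BMI1 is the only gene whose unadjusted interval does not include 0, and its value lies just outside the band. The 116 short-arm genes of chromosome 10 described with BMI1 had a median log2 fold change of -0.53.

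None of the 7 genes was differentially expressed in limma, where both thresholds had to be met, 0.05 for the adjusted p-value and 1 for the size of the log2 fold change. Over all 15136 tested genes this share was 0.0132%. The edgeR quasi-likelihood test and DESeq2 also gave 0 of the 7, against 0.00661% and 0.172% of tested genes at an adjusted p-value below 0.05, and a fit with the replicate number as a block gave 0 against 0.0859%. At an unadjusted p-value below 0.05, BMI1 alone of the 7 genes passed in all 3 tools. Of the 15136 tested genes, 538 passed in limma, 530 with the edgeR quasi-likelihood test and 321 with DESeq2. The BMI1 log2 fold change of -0.57 lay within the quartiles of the 116 short-arm genes of chromosome 10, -0.61 and -0.42. In CPM, both tKO libraries lay below both dKO libraries for 2 of the 7 genes, RNF2 and BMI1, against 16.3% of tested genes. The tKO libraries lay above the dKO libraries for 2, PCGF1 and PCGF6, against 15.1%. For RNF2 the order of tKO 1 and dKO 1 was reversed on the scaled log2-CPM of the fit. The median log2 fold change of the 7 genes was -0.022 and that of all tested genes was -0.0014.

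Levels of different genes were compared as CPM per kb of exonic sequence. By this measure RNF2 was highest at 19.8 ± 1.90 (SD over the 4 libraries), followed by BMI1 at 13.9 ± 3.49, PCGF3 at 12.5 ± 0.644, PCGF5 at 11.0 ± 1.503, PCGF6 at 6.84 ± 0.378, PCGF1 at 6.07 ± 0.822 and RING1, as counted, at 0.432 ± 0.0692. The ranges over libraries did not overlap between RNF2 and BMI1, between PCGF5 and PCGF6, or between PCGF1 and RING1. They overlapped between BMI1 and PCGF3, PCGF3 and PCGF5, and PCGF6 and PCGF1. These ranges therefore did not resolve the order within the group of BMI1, PCGF3 and PCGF5 or within the pair of PCGF6 and PCGF1. Compared library by library, PCGF3 was above PCGF5 in all 4 libraries, and PCGF6 above PCGF1 in 3. BMI1 was above PCGF3 in 3 of the 4 libraries, the exception being tKO 1. The length used matters here. With the longest transcript in place of all exonic bases PCGF1 stood at 10.0 and PCGF6 at 9.21, and with the exonic bases that BMI1 does not share it stood at 17.9. On that length BMI1 ranged from 11.9 to 21.96, which overlapped the range of RNF2 from 17.6 to 22.2, so the order of RNF2 and BMI1 was not resolved either.

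The make-up of the PCGF transcript pool differed most for BMI1 in tKO 1. The 5 measured paralogs summed to 52.5 and 53.1 CPM per kb in the dKO libraries, and to 47.3 and 48.2 in tKO 1 and tKO 2. BMI1 held 32.3% and 30.1% of this sum in dKO 1 and dKO 2, 19.4% in tKO 1 and 27.5% in tKO 2. It was the largest share in all libraries except tKO 1, where PCGF3 at 27.3% and PCGF5 at 25.4% were larger. PCGF3 held 22.9%, 24.99% and 24.9% in dKO 1, dKO 2 and tKO 2, and PCGF5 held 21.5%, 22.3% and 18.2%. PCGF6 held between 12.1% and 15.3% and PCGF1 between 9.78% and 14.9%. The ratio of BMI1 to PCGF5 was taken in CPM per kb of all exonic bases. It was 1.51 and 1.35 in the dKO libraries, 0.763 in tKO 1 and 1.51 in tKO 2. A high ratio in tKO 2 thus went with low levels of both genes. PCGF2, the other canonical paralog, is not part of these sums.

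**Figure D4:**
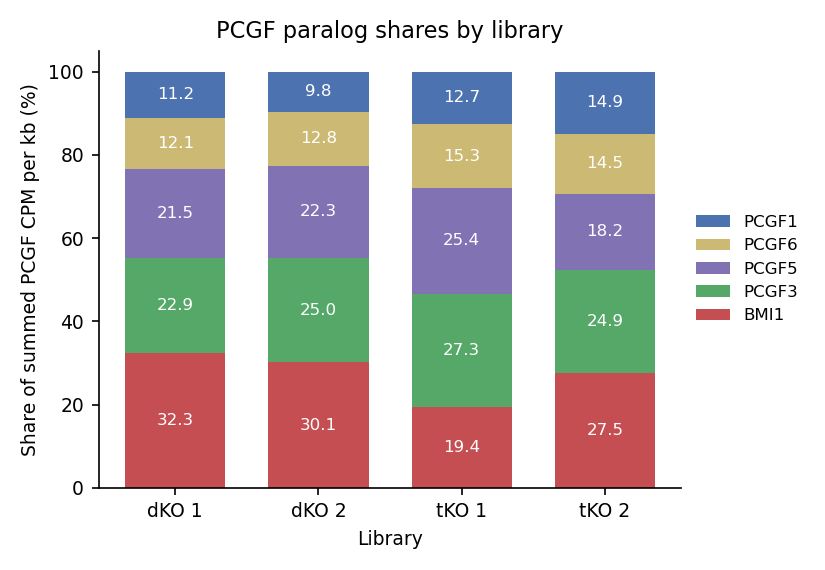
Share of each PCGF paralog in the summed CPM per kb of all exonic bases of the 5 measured paralogs, in percent, with 1 bar per library. The BMI1 share is 19.4% in tKO 1 and between 27.5% and 32.3% in the other libraries. On the exonic bases that BMI1 does not share, not drawn here, it is 23.7% in tKO 1.

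The subunits that join the PCGF proteins were measured beside them. Of 32 partner genes 31 were tested, since CSNK2B had no counts, and 0 were differentially expressed in limma (smallest adjusted p = 0.996), with the edgeR quasi-likelihood test or with DESeq2. An unadjusted p-value below 0.05 was found for 1 partner in each of these 3 tools, in limma for CBX6. Of the 15136 tested genes 538, or 3.55%, passed in limma, 530 with the edgeR quasi-likelihood test and 321 with DESeq2. Log2 fold changes lay between -0.21 and 0.35, 21 above 0 and 10 below, with a median of 0.06. Of all tested genes 7523 lay above 0 and 7613 below, with a median of -0.0014.

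Among the 10 canonical partners, CBX and PHC proteins and their SCM relatives, the median log2 fold change was 0.05. CBX6, a chromodomain subunit, was highest at 0.35, with 83.1 and 79.0 CPM in dKO and 93.6 and 113 CPM in tKO 1 and tKO 2. Its unadjusted p-value was 0.0234 and its limma adjusted p = 0.996. Its tKO libraries were above both dKO libraries. Of the subunits shared by variant complexes, RYBP was at 0.01 and YAF2 at -0.21, the lowest of all partners, with 26.2 and 28.2 CPM in dKO and 25.4 and 21.6 CPM in tKO.

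The 5 partners of PCGF1 had a median of -0.03, from -0.07 for KDM2B, which binds unmethylated CpG DNA, to 0.13 for USP7, a deubiquitinase. The 5 tested partners of PCGF3 and PCGF5 were all above 0, from 0.05 for FBRSL1 to 0.21 for AUTS2, with a median of 0.09. AUTS2 had 100 and 91.4 CPM in dKO, 93.0 CPM in tKO 1 and 132 CPM in tKO 2, so that tKO 2 alone stood above dKO. The 9 partners of PCGF6 had a median of 0.06, from -0.17 for MGA, a DNA-binding scaffold, to 0.24 for L3MBTL2, which reads methylated histones. MGA had 227 and 226 CPM in dKO, 181 CPM in tKO 1 and 224 CPM in tKO 2, so that tKO 1 alone stood well below the others.

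**Figure D5:**
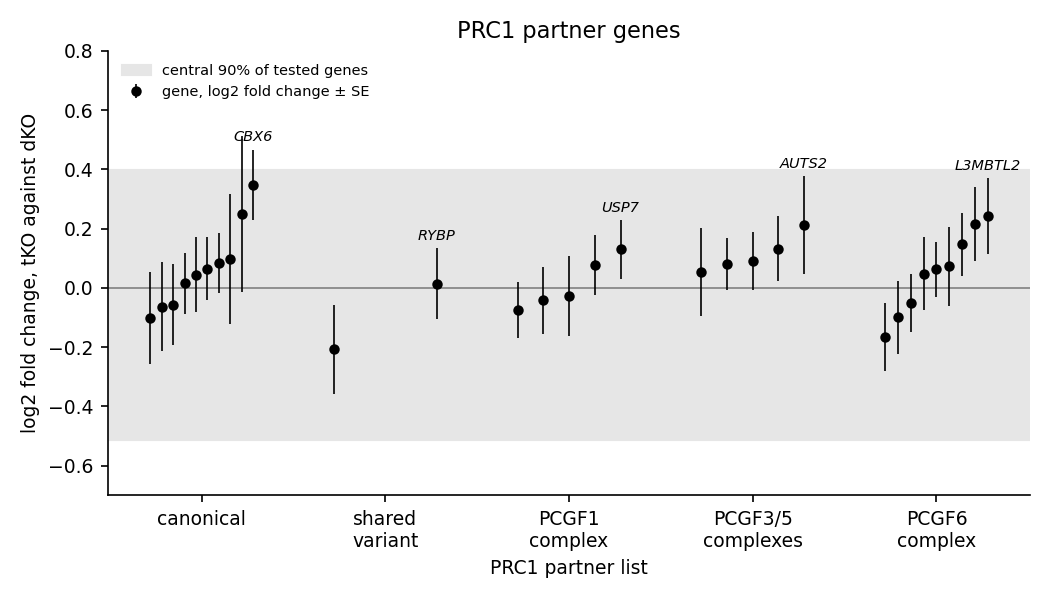
Log2 fold change of tKO against dKO with its standard error for each tested partner gene, grouped by the PRC1 complex it joins, with the central 90% of all tested genes in grey. All 31 genes lie inside the grey band, and the highest gene of each list is named.

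Genes with the profile most like that of BMI1 and of RNF2 were sought among 11474 tested genes with a mean above 5 CPM, by the Euclidean distance of log2-CPM deviations over the 4 libraries. For BMI1 they were MRAS on chromosome 3, at a distance of 0.07, and KIAA1217 and RAB18, both on chromosome 10, at 0.12 and 0.14. MRAS, a RAS-family GTPase, stood at 21.7, 19.3, 11.1 and 16.8 CPM in dKO 1, dKO 2, tKO 1 and tKO 2. For RNF2 they were CTSV, UHRF2 and FAM199X, each at a distance of 0.02. With 4 libraries such likeness is a description only.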

How the data were processed

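RNA-seq was analysed in 2 dKO and 2 tKO libraries, grouped by their titles. The authors trimmed reads with cutadapt (1.12) through Trim Galore (0.4.4), discarded ribosomal RNA reads found by Bowtie (1.2), and used STAR (2.5.2b) for mapping to GRCh37. The deposited values were raw counts per gene of GENCODE release 19, from uniquely mapped reads, in 1 unstranded and 2 stranded columns. The column in the kit's orientation was used. The other strand took between 4.01% and 4.24% of stranded gene counts. Of all reads, 14.3% to 14.8% were multimapping, and 10.0% to 11.1% matched no exon of a gene on the counted strand. A further 1.84% to 1.86% were ambiguous between genes, and 0.785% to 0.999% were unmapped. These entries were left out of library totals. Whether haplotype copies of chromosome 6 were part of the mapped genome is not given in the sources used here.

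Symbols, positions and exonic lengths came from GENCODE release 44 lifted to GRCh37, so lengths may differ from those counted. A symbol matched 97.5% of tested genes. CPM was taken over gene counts.

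Genes above 0.5 CPM in at least 2 libraries (15136) were turned into log2-CPM with TMM library sizes and a prior count of 2 in edgeR (4.0.16). A linear model with genotype as its term was fitted in limma (3.58.1) under R (4.3.3), with a mean-variance trend and Benjamini-Hochberg adjustment over all tested genes. Fold changes on this scale understate changes of low genes. Ratios of single tKO libraries used TMM-scaled CPM without a prior count. The filter, TMM, model and thresholds follow the study's methods, while the prior count and trend were chosen here. The fit was run on simulated counts with known changes, where the share of false calls was above the nominal level. DESeq2 (1.42.0), edgeR's quasi-likelihood test and the settings named in the closing section were alternatives. Replicate libraries were not duplicates (chi-square divided by its degrees of freedom, 6.75 for dKO and 19.1 for tKO). P-values measure the spread between these libraries, and floors cover counting error only.

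The genes, partner lists and tests were chosen with earlier results of these data known. Genes named were the 8 listed, BAP1, the partners with the smallest p-value, highest and lowest log2 fold change of each list, the 3 nearest protein-coding genes on either side of RING1, RNF2 and BMI1, and the 3 closest profiles to BMI1 and RNF2. Of these, 1 gene is not reported here. Other genes of the chromosome 6 window, partners whose libraries are described, and the neighbours of PCGF5 were chosen after their values were seen.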

Additional observations from a re-analysis of the deposited data

How the results depend on the processing

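None of the 7 genes or of the 31 tested partners was differentially expressed under any alternative run, and RING1 was not tested at CPM above 5. By the limma adjusted p-value alone, 1 of the 7 genes passed without tKO replicate 1 (PCGF5), 1 without tKO replicate 2 (BMI1), and 2 partners without tKO replicate 1. Of all tested genes, 8.34% passed without tKO replicate 1 and 2.93% without tKO replicate 2. The number of genes in the whole table past both thresholds, 2 in limma, was 1 with the edgeR quasi-likelihood test, without a trend, at CPM above 5 and with unstranded counts, 0 with no filter, 25 with DESeq2 and 13 with the replicate block. It ran from 0 to 480 when 1 replicate was left out, being 480 without tKO replicate 1 and 175 without tKO replicate 2. Same-numbered libraries deviated together with a correlation of 0.0581, so the numbers were not taken to pair them; the replicate block gave BMI1 an unadjusted p-value of 0.00819 (limma adjusted p = 0.838) and changed no call of the 7 genes. The BMI1 log2 fold change lay between -0.58 and -0.55 over the 11 alternatives that kept all libraries (adjusted p from 0.734 to 1.00), and its unadjusted p-value was above 0.05 without a trend (0.0510) and with no filter (0.0575). Its log2 ratio in tKO 1 lay between -0.88 and -0.78 under every baseline and scaling tried. Direction was not stable for small values: leaving out 1 replicate gave from -0.25 to 0.20 for RING1, from -0.082 to 0.046 for PCGF3 and from -0.41 to 0.070 for PCGF5, and unstranded counts gave 0.010 for PCGF3. The causes were not tested. With 12 to 17 counts, depth limited what could be said of RING1.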

Other observations

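Windows before the start sites of the other paralogs differed in their CG content. The RefSeq window of PCGF1 held 12 CG dinucleotides, that of PCGF6 19 and that of PCGF3 35. PCGF5 had 4 start sites listed, with 41, 41, 29 and 2 CG dinucleotides, and a second BMI1 start site had 54, a number reached by 0.0399% of all windows.

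The genes around PCGF5 were looked at after its low level in tKO 2 had been seen, and their difference from PCGF5 was not tested. TNKS2, HECTD2 and RPP30, the neighbours with the highest levels, had log2 ratios to the dKO mean of -0.19, -0.03 and -0.06 in tKO 2, against -0.41 for PCGF5. In tKO 1 they had 0.19 for HECTD2, 0.17 for RPP30 and -0.02 for TNKS2, against 0.07 for PCGF5.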
